A study of Mus musculus with 12 samples.

Results

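The 36 genes described here encode aminoacyl-tRNA synthetases of the mouse, 20 that serve the cytosol and 16 that serve mitochondria, and were taken by gene name from a list of these enzymes; each was found as 1 of the 19439 entries of the deposited table. A name ending in 2 marks a mitochondrial enzyme. Their RNA was measured by RNA sequencing in 12 libraries of 3T3 fibroblasts, mouse embryonic fibroblast lines made immortal by repeated passage, in 4 groups of 3 libraries. The groups were a line described as p53 -/- (p53-null) kept in DMEM without glutamine (glutamine-free), the p53-null line with 2 mM L-glutamine (complete), a line with wild-type p53 (WT) in glutamine-free medium, and the WT line in complete medium, each for 18 h. All groups share the 3T3 origin and the DMEM base, and the kind of p53 allele is not given. The design asks how the 2 lines respond to the loss of glutamine and whether the responses differ. With 1 line for each genotype, a difference between genotypes here is a difference between these 2 lines, and p53 cannot be told apart from anything else in which they differ. Whether the 3 libraries of each group derive from independent cultures is not stated, and p-values therefore reflect library-to-library spread that may be only technical.

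An aminoacyl-tRNA synthetase joins an amino acid to its tRNA, the step that sets the genetic code and feeds the ribosome. Cytosolic and mitochondrial ribosomes use separate tRNAs, and for most amino acids the nucleus encodes a separate enzyme for each compartment. Gars and Kars, the enzymes for glycine and lysine, serve both compartments from a single gene, and Eprs joins the enzymes for glutamate and proline in a single chain. Several cytosolic enzymes sit together in the multi-synthetase complex. When amino acids run short, uncharged tRNA activates the kinase GCN2, encoded by Eif2ak4, which raises translation of the transcription factor ATF4, and many cytosolic synthetase genes are known ATF4 targets. Mitochondria have no glutaminyl-tRNA synthetase: Ears2 loads glutamate onto that tRNA and an amidotransferase turns it into glutamine.

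Values are RPKM, reads per kilobase of gene scaled to the mapped reads of the library, which can be compared between genes. Log2 changes are differences of group means of log2(RPKM + 1) with their standard error (SE), a scale that understates the change of genes near 1 RPKM. A gene was called at a Benjamini-Hochberg adjusted p under 0.05 in a limma fit over the 11461 genes that reached 1 RPKM in 3 or more libraries, a filter that all 36 genes passed. Read depth, estimated from the spacing of low RPKM values, was 37.7 to 46.8 M. Replicate libraries differed little, so most genes were called in every comparison, and the size of a change says more than its call. Trp53, which encodes p53, was read in all groups and averaged 34.6 ± 0.614 RPKM in p53-null and 112 ± 2.22 RPKM in WT cells without glutamine, and 28.8 ± 0.873 RPKM in p53-null and 58.5 ± 0.585 RPKM in WT cells with it (SD, n = 3 each). Of 10 fibroblast markers, 9 were at 1 RPKM or more in all 12 libraries and Thy1 was not, while the summed level of the 10, lower without glutamine in both lines, was 1432 to 1458 RPKM in p53-null glutamine-free, 2503 to 2540 in p53-null complete, 1028 to 1036 in WT glutamine-free and 4125 to 4145 in WT complete libraries. Single markers differed in direction between the lines. In complete medium 8 of the 9 tested were lower in p53-null than in WT cells, beside 42.5% of all genes. Dcn averaged 18.0 RPKM in p53-null and 472 RPKM in WT cells there, while Vim, the 1 higher marker, averaged 1730 and 760 RPKM. In glutamine-free medium 5 of the 9 were lower and 4 higher, beside 40.0% and 51.4% of all genes. Of 12 markers of epithelial, blood and endothelial cells, those at 1 RPKM or more in a whole group were Krt18, Cd68 and Kdr, each in the p53-null line, with Krt18 at 75.5 and 59.6 RPKM in p53-null glutamine-free and complete cells and 0.0115 RPKM in WT glutamine-free cells, with WT complete cells listed at 0. The defining markers Epcam, Ptprc and Cdh5 stayed near 0 in all groups. The part of these marker differences in the results below was not tested.

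The median cytosolic gene stood well above the median mitochondrial gene in every library. The median over the 20 cytosolic genes was 80.8 ± 0.656 RPKM in p53-null glutamine-free, 70.2 ± 0.541 in p53-null complete, 115.8 ± 0.404 in WT glutamine-free and 46.4 ± 0.40 RPKM in WT complete libraries (SD, n = 3 each). Over the 15 mitochondrial genes other than Lars2 it was 7.06 ± 0.211, 8.23 ± 0.263, 5.04 ± 0.274 and 4.48 ± 0.130 RPKM in the same order of groups. The ratio of the class medians was therefore 11.04, 11.9 and 11.4 in p53-null glutamine-free and 8.47, 8.85 and 8.27 in p53-null complete libraries. It was 24.3, 22.9 and 21.9 in WT glutamine-free and 10.5, 9.97 and 10.7 in WT complete libraries. In both lines the ratio was higher in each glutamine-free library than in any complete library of that line. In bulk RNA a change in the make-up of the cells and a change per cell cannot be told apart.

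**Figure D1:**
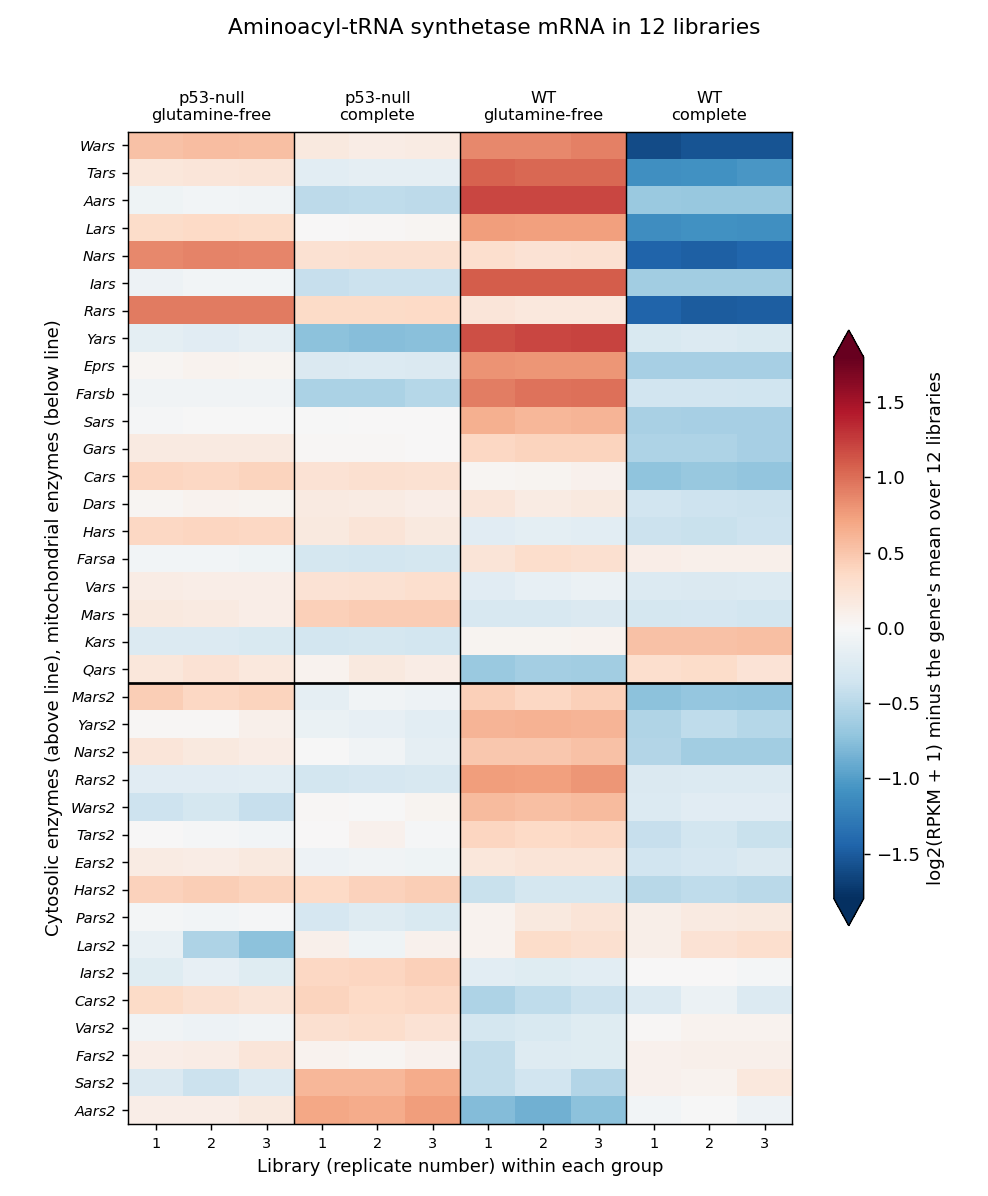
Level of each of the 36 synthetase genes in the 12 libraries, as log2(RPKM + 1) minus the gene's mean over all libraries (colour), with cytosolic genes above the thick line and mitochondrial genes below it, each sorted by the WT response. The WT complete columns are the lowest for most upper cytosolic genes, Kars and Qars run the other way in WT, and Lars2 is uneven within groups.

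In WT cells, withdrawal of glutamine raised most cytosolic synthetase mRNAs, many of them several-fold. Of the 20 genes, 17 rose, 2 fell and 1 was not called, beside 46.0% of all genes tested called higher and 44.0% called lower. At least 2-fold rises on the log2(RPKM + 1) scale were found for 11 of the 20 cytosolic genes, against 9.75% of all genes. The median log2 change of the class was 1.26, against 0.011 for all genes.

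Wars, for tryptophan, had the largest rise, with 66.8, 67.0 and 68.9 RPKM in glutamine-free libraries, against 11.2, 11.6 and 11.7 RPKM in complete libraries, 5.87-fold in mean RPKM (log2 change 2.45 ± 0.020, adjusted p = 7.8e-18). Tars, for threonine, reached 232, 228 and 229 RPKM without glutamine, against 50.9, 51.7 and 53.03 RPKM with it (log2 change 2.12 ± 0.015). Aars, for alanine, was measured at 356, 355 and 356 RPKM in glutamine-free and 96.8, 95.5 and 95.3 RPKM in complete libraries, the highest synthetase level of the starved WT cells (log2 change 1.88 ± 0.011). For all 3 genes each glutamine-free library was more than 3-fold above every complete library. Lars, for leucine, stood at 133, 132 and 132 RPKM without glutamine and 35.6, 36.6 and 36.2 RPKM with it (log2 change 1.84 ± 0.014). Nars, for asparagine, an amino acid made from glutamine nitrogen, held 170.1, 165 and 166 RPKM in glutamine-free against 50.0, 48.7 and 50.5 RPKM in complete libraries (log2 change 1.73 ± 0.016). Rars, for arginine, held 139.6, 137 and 137 RPKM in glutamine-free and 43.6, 41.98 and 42.4 RPKM in complete libraries (log2 change 1.67 ± 0.015). For these 3 genes, too, no glutamine-free library overlapped a complete one, as was the case for 90.0% of all genes tested. Part of the Aars exon length, 14.3%, is shared with Exosc6 on the same strand, so some reads could belong to either gene.

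Eprs, the glutamate and proline enzyme, was at 205, 203 and 203 RPKM in glutamine-free and 76.9, 77.0 and 76.7 RPKM in complete WT libraries, 2.65-fold in the mean (log2 change 1.39 ± 0.011). Gars, which also supplies mitochondria, was at 235, 239.5 and 239 RPKM without and 122, 123 and 119.1 RPKM with glutamine (log2 change 0.97 ± 0.014). Iars, for isoleucine, was at 183, 182 and 183 RPKM in glutamine-free and 54.7, 54.8 and 54.7 RPKM in complete libraries (log2 change 1.72 ± 0.014). The libraries of the 2 media were apart for each of these genes, as for 90.0% of all genes tested. Yars, for tyrosine, was at 141, 144 and 146 RPKM without and 51.4, 52.3 and 51.4 RPKM with glutamine (log2 change 1.45 ± 0.017). Sars, for serine, was at 142, 138 and 139 RPKM without and 60.2, 59.6 and 59.8 RPKM with it (log2 change 1.21 ± 0.013). The smaller rises were those of Cars (cysteine, log2 change 0.76), Dars (aspartate, 0.55), Hars (histidine, 0.19), Farsa (phenylalanine, 0.18) and Vars (valine, 0.097). Dars was at 54.1, 51.7 and 52.3 RPKM in glutamine-free and 36.2, 35.7 and 35.2 RPKM in complete libraries. Vars was at 88.0, 91.8 and 94.8 RPKM without and 85.7, 85.0 and 85.7 RPKM with glutamine, and its change turned to -0.0098, not called, with quantile normalization.

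The phenylalanine enzyme is built from a catalytic alpha and a beta subunit, encoded by Farsa and Farsb, and the mRNAs of the subunits moved by unequal amounts. Farsb was at 79.0, 82.1 and 82.8 RPKM in glutamine-free and 32.2, 32.2 and 31.8 RPKM in complete WT libraries, 2.54-fold in mean RPKM (log2 change 1.32 ± 0.019). Farsa was at 39.0, 41.2 and 40.3 RPKM in glutamine-free and 35.9, 35.1 and 35.1 RPKM in complete libraries, 1.14-fold (log2 change 0.18 ± 0.020, adjusted p = 1.8e-06). In complete medium the levels of the 2 subunits lay close together, and in glutamine-free medium every Farsb value was about 2-fold every Farsa value. Of the Farsb exon length, 9.5% lies under Sgpp2 on the other strand, which these unstranded libraries cannot separate.

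Against this rise, the gene of the glutaminyl-tRNA synthetase itself fell in WT cells. Qars held 21.3, 22.1 and 22.02 RPKM in glutamine-free libraries, against 42.5, 43.3 and 41.1 RPKM in complete libraries, a ratio of mean RPKM of 0.516 (log2 change -0.92 ± 0.029, adjusted p = 2.6e-12). Kars, for lysine, was the other cytosolic gene that fell, with 98.8, 99.0 and 100.2 RPKM without and 138, 138 and 139 RPKM with glutamine (log2 change -0.48 ± 0.012, adjusted p = 2.3e-13). In complete medium Kars had the highest level of the 20 cytosolic genes in WT cells, and in glutamine-free medium it ranked below 10 of them. Mars, for methionine, was not called, although no library overlapped between media, with 34.3, 34.2 and 34.9 RPKM in glutamine-free and 33.6, 33.9 and 33.4 RPKM in complete libraries (log2 change 0.034 ± 0.017, adjusted p = 0.0676, which was 0.044 without p53-null glutamine-free replicate 3, a library that enters only through the shared estimate of spread). Of the Mars exon length, 2.0% lies under Ddit3, a stress gene on the opposite strand that averaged 169 RPKM in glutamine-free and 23.8 RPKM in complete WT cells. Qars, Kars and Mars are all members of the multi-synthetase complex. Of the 8 cytosolic members of that complex in the list, 5 rose, 2 fell and 1 was not called. Of the 12 cytosolic genes outside it all 12 rose, with Vars the smallest at 0.097. Over all genes 46.0% were called higher and 44.0% lower. The median log2 change was 0.97 for the 8 and 1.26 for the 12, against 0.011 for all genes. At least 2-fold rises were found for 4 of the 8 and 7 of the 12, beside 9.75% of all genes.

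**Figure D2:**
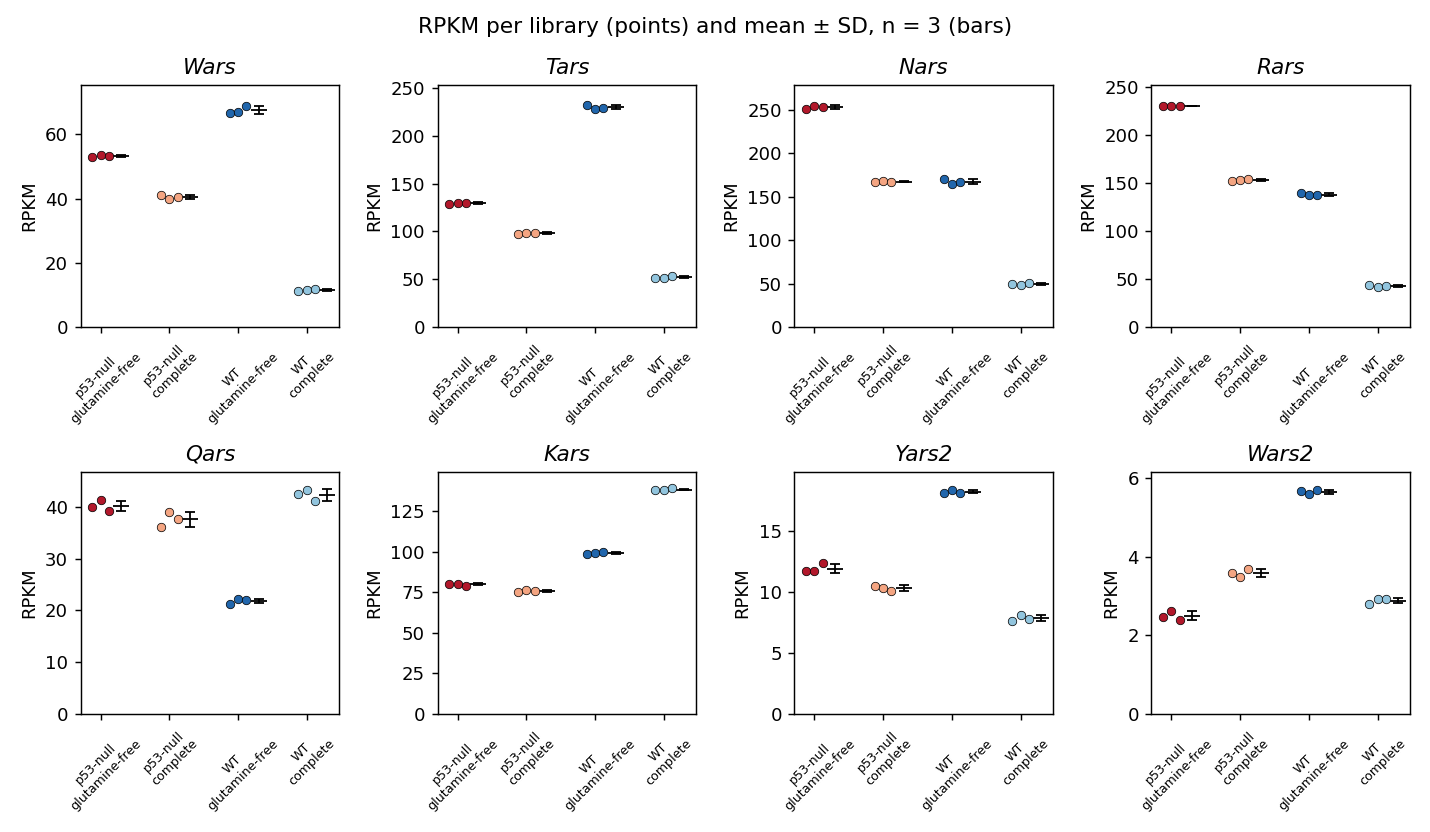
RPKM of 8 synthetase genes in every library (points, y axis from 0) with the group mean and SD (bars, n = 3), by group. Wars and Tars are highest in WT glutamine-free cells, Nars and Rars in p53-null glutamine-free cells, Qars is lowest in WT glutamine-free cells, and Wars2 is lower without glutamine in p53-null cells and higher without it in WT cells.

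The promoters of the synthetase genes were searched for the C/EBP-ATF element, since most cytosolic ones rose in WT cells. It is the sequence that ATF4 binds together with C/EBP proteins. The letters TGATGNAA, on either strand, were sought from 250 bases before to 50 after the annotated start in RefSeq promoter sequences (GRCm38.p6), which held 27 of the 36 genes (13 cytosolic and 14 mitochondrial, with Mars found under a synonym). Cars, Hars, Lars, Nars, Rars, Vars, Wars, Hars2 and Pars2 are the others. The element was present for 5 of the 13 cytosolic genes (Aars, Gars, Iars, Tars and Yars) and 0 of the 14 mitochondrial genes, and in 3.97% of all 32851 promoters. A match to so short a run of letters is a description and no evidence of binding. In Tars and Gars, given in order of their rise in WT cells, a match lies before the RefSeq start and outside all exons of the GENCODE M21 annotation. Capitals mark the element, which in these genes reads on the strand opposite to the gene, and each run is written 5′ to 3′ on the gene's strand. Both runs are 120 bases long and lie outside those exons.
Tars, chr15:11399666-11399785, minus strand: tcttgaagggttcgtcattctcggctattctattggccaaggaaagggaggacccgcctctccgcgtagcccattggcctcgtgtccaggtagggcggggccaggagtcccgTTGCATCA
Gars, chr6:55037881-55038000, plus strand: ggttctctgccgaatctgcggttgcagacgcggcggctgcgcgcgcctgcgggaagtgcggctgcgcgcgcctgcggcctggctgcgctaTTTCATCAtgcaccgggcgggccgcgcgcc

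The element of Tars begins 15 bases before the start as TTGCATCA, and that of Gars begins 30 bases before the start as TTTCATCA. In Yars and Iars the match lies just after the start, in Yars as TGATGCAA and in Iars as TTGCATCA on the gene's strand. The E-box CACGTG, a palindrome, was found for 4 of the 13 cytosolic genes (Aars, Farsb, Iars and Tars) and 1 of the 14 mitochondrial genes (Ears2), against 7.15% of all promoters. Of the 5 cytosolic genes with the C/EBP-ATF element all 5 rose in WT cells, as did 17 of all 20 cytosolic genes and 46.0% of all genes tested. Of the 8 whose windows hold no match 5 rose (Dars, Eprs, Farsa, Farsb and Sars), 2 fell (Kars and Qars) and Mars was not called. Genes without a promoter sequence, among them Wars, Lars, Nars and Rars with their large rises, are in neither group. Whether a match goes with the response was not tested.

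The mitochondrial synthetase genes went both ways in WT cells. Of the 16, 8 rose, 6 fell and 2 were not called, with a median log2 change of 0.075, shares close to the 46.0% of all genes called higher and 44.0% called lower. At least 2-fold rises were found for 4 of the 16, against 9.75% of all genes, and these were the methionine, tyrosine, asparagine and arginine enzymes. Mars2 was at 7.21, 6.92 and 7.23 RPKM in glutamine-free and 2.64, 2.77 and 2.72 RPKM in complete libraries (log2 change 1.13 ± 0.032, adjusted p = 8.6e-13). Yars2 was at 18.2, 18.4 and 18.2 RPKM without and 7.63, 8.16 and 7.83 RPKM with glutamine (log2 change 1.12 ± 0.028). Nars2 reached 4.77, 4.74 and 4.95 RPKM in glutamine-free libraries, against 1.84, 1.67 and 1.66 RPKM in complete libraries (log2 change 1.09 ± 0.043). All 3 were separated between media in every library, as were 90.0% of all genes tested. Rars2 was at 25.0, 24.9 and 25.8 RPKM in glutamine-free and 11.9, 12.04 and 12 RPKM in complete libraries (log2 change 1.02 ± 0.019). Ears2, the enzyme that starts glutaminyl-tRNA synthesis in mitochondria and one of the lowest genes of the class, was at 1.42, 1.46 and 1.48 RPKM without and 0.662, 0.7 and 0.76 RPKM with glutamine (log2 change 0.52 ± 0.031, and 2.06-fold in mean RPKM). Wars2, for tryptophan, was at 5.67, 5.59 and 5.69 RPKM in glutamine-free and 2.8, 2.92 and 2.91 RPKM in complete libraries (log2 change 0.78 ± 0.031). Tars2, for threonine, rose by 0.75 on the log2 scale and Hars2, for histidine, by 0.14. The largest fall was that of Aars2, for alanine, at 2.31, 2.11 and 2.39 RPKM in glutamine-free and 4.47, 4.61 and 4.33 RPKM in complete libraries (log2 change -0.74 ± 0.037). Sars2, for serine, was at 1.43, 1.60 and 1.29 RPKM without and 2.46, 2.44 and 2.75 RPKM with glutamine (log2 change -0.54 ± 0.054). The other falls, of Cars2, Fars2, Iars2 and Vars2, were between -0.39 and -0.19 on the log2 scale. Iars2, for isoleucine, was at 22.5, 22.02 and 22.5 RPKM without and 25.9, 26.0 and 25.0 RPKM with glutamine. Of the Iars2 exon length, 24.2% lies under genes of the opposite strand, mostly Rab3gap2. Pars2, for proline, and Lars2 were not called.

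Counted as pairs of genes for 1 amino acid, the enzymes of the 2 compartments parted as often as they moved together in WT cells. Of 17 pairs of a cytosolic and a mitochondrial gene for the same amino acid, 7 moved in the same direction and 7 in opposite directions. In 3 at least 1 gene was not called. Of all genes 46.0% were called higher and 44.0% lower, and the share of opposite pairs among unrelated genes was not taken. Pairs that rose together were those for asparagine, arginine, threonine, tryptophan, tyrosine, histidine and glutamate. The pairs for alanine, cysteine, isoleucine, serine, valine and phenylalanine, the last counted once for each cytosolic subunit, had a cytosolic rise beside a mitochondrial fall. The valine parting rests on a Vars rise of 0.097, which turned to -0.0098 with quantile normalization. The alanine pair parted most, with log2 changes of 1.88 for Aars and -0.74 for Aars2. For methionine the order was turned, with 0.034 for Mars, not called, and 1.13 for Mars2. Hars and Hars2 are neighbours on chromosome 18, at 36766528 to 36783205 (minus strand) and 36783008 to 36792562 (plus strand, mm10), and their exons overlap by 195 bases at the 5′ ends, so unstranded reads there could belong to either.

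**Figure D3:**
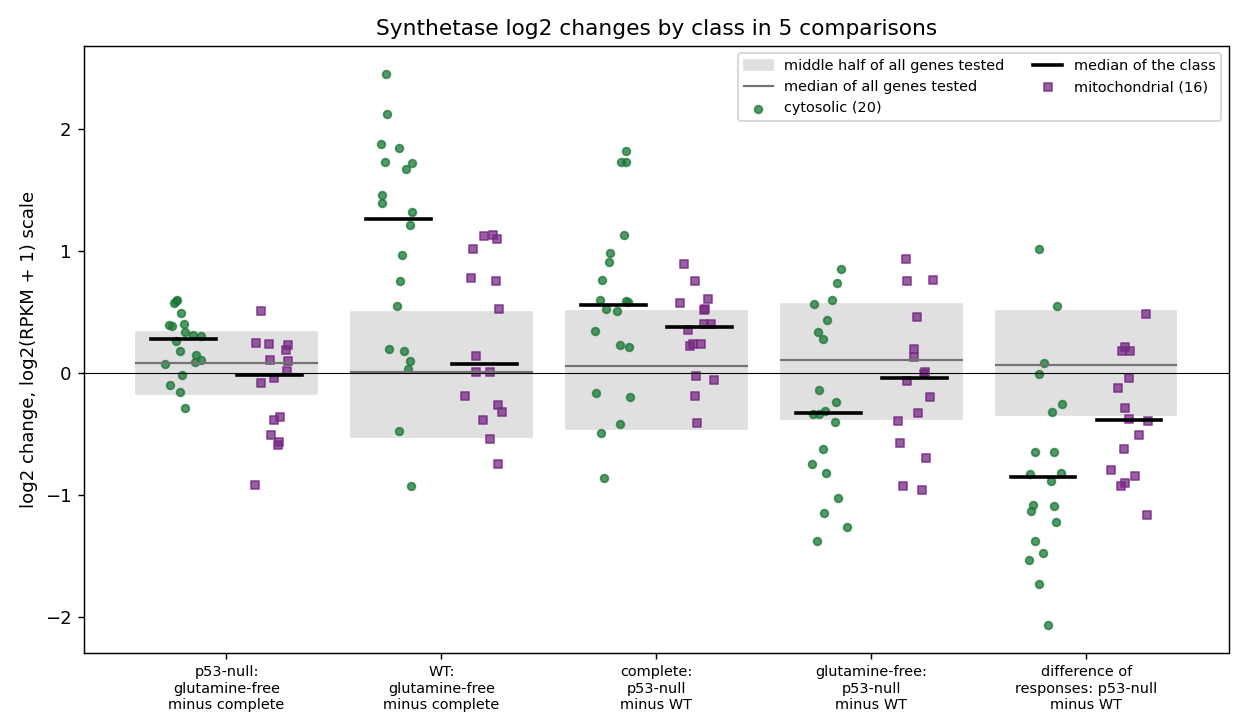
Log2 change of each synthetase gene in the 5 comparisons, cytosolic genes as circles and mitochondrial genes as squares, with the class median (black bar), and the median and middle 50% of all 11461 genes tested (grey). The cytosolic median is 0.28 for p53-null withdrawal and 1.26 for WT withdrawal, and the mitochondrial median is -0.015 for p53-null and 0.075 for WT withdrawal.

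In p53-null cells, withdrawal raised most of the cytosolic genes too, and by less than 2-fold. Of the 20, 16 rose, 3 fell and 1 was not called, beside 50.0% of all genes called higher and 32.0% called lower. Of all calls 61.0% were rises, and 47.6% with each library centred on its median gene, where 13 cytosolic genes rose and 5 fell. No synthetase gene changed 2-fold on the log2(RPKM + 1) scale, beside 1.27% of all genes at least 2-fold higher and 2.03% at least 2-fold lower, and the cytosolic median log2 change was 0.28, against 0.083 for all genes.

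Nars had the largest rise, to 251, 255 and 254 RPKM in glutamine-free libraries, against 166, 168 and 167 RPKM in complete libraries, 1.51-fold in mean RPKM (log2 change 0.59 ± 0.016, adjusted p = 2.5e-12). Rars was at 231, 231 and 231 RPKM in glutamine-free and 152, 153 and 154 RPKM in complete p53-null libraries (log2 change 0.59 ± 0.015). Yars was at 54.7, 53.9 and 55.5 RPKM without and 36.8, 36.3 and 36.3 RPKM with glutamine (log2 change 0.57 ± 0.017). For these 3 genes every glutamine-free library lay above every complete library, and libraries of the 2 media did not overlap for 84.0% of all genes. Farsb was at 39.4, 39.4 and 39.5 RPKM without and 27.5, 27.6 and 28.4 RPKM with glutamine (log2 change 0.49 ± 0.019), and Farsa, its partner subunit, changed by 0.26 ± 0.020. Aars, Tars, Wars and Lars, the leading genes of the WT response, rose by 0.40, 0.39, 0.39 and 0.31 on the log2 scale in p53-null cells. Wars held 52.9, 53.5 and 53.2 RPKM in glutamine-free and 41.0, 39.9 and 40.4 RPKM in complete libraries. Tars held 128, 129.6 and 130.0 RPKM without and 97.2, 98.7 and 98.7 RPKM with glutamine, and Aars held 147, 149 and 148 RPKM without and 111, 112 and 111 RPKM with it. Lars stood at 99.1, 101 and 99.3 RPKM in glutamine-free and 79.4, 80.2 and 81.0 RPKM in complete libraries. Each of these 4 genes was higher in every glutamine-free library than in any complete one. Iars was at 80.3, 82.8 and 82.1 RPKM without and 63.7, 64.9 and 64.7 RPKM with glutamine (log2 change 0.34 ± 0.014). Gars was at 201, 203 and 202 RPKM without and 184, 183 and 181 RPKM with it (log2 change 0.14 ± 0.014). Eprs was at 119.8, 121 and 120.3 RPKM without and 97.4, 98.4 and 97.3 RPKM with glutamine (log2 change 0.30 ± 0.011).

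Dars, Mars and Vars fell and Sars was not called in p53-null cells, and of these Mars was also without a called rise in WT cells. Mars held 47.5, 47.4 and 45.9 RPKM in glutamine-free and 56.8, 58.0 and 58.0 RPKM in complete libraries (log2 change -0.29 ± 0.017, adjusted p = 3.2e-09). Vars was at 112, 110.1 and 110.5 RPKM without and 122, 124 and 126 RPKM with glutamine (log2 change -0.16 ± 0.022), and Dars at 47.4, 48.2 and 47.8 RPKM without and 51.8, 51.5 and 50.6 RPKM with it (log2 change -0.10 ± 0.018). Sars was at 90.0, 90.3 and 90.3 RPKM in glutamine-free and 90.3, 91.7 and 91.3 RPKM in complete libraries (log2 change -0.014 ± 0.013, adjusted p = 0.319). Qars was at 39.9, 41.3 and 39.3 RPKM without and 36.1, 39.0 and 37.7 RPKM with glutamine (log2 change 0.093 ± 0.029, adjusted p = 0.0109). Kars was at 80.2, 80.3 and 79.1 RPKM in glutamine-free and 75.5, 76.3 and 75.9 RPKM in complete libraries (log2 change 0.073 ± 0.012). The small rises of Qars and Kars turned to -0.013 and -0.033 when libraries were centred on the median gene, so their direction rests on the scaling. The Qars rise also lost its call without p53-null complete replicate 1 (adjusted p = 0.0572) or p53-null glutamine-free replicate 2 (adjusted p = 0.0528).

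Among the 16 mitochondrial genes of p53-null cells 6 rose, 6 fell and 4 were not called, beside 50.0% of all genes called higher and 32.0% called lower. The class had a median log2 change of -0.015 that turned to 0.0080 when libraries were rescaled to 1 sum of RPKM. With median centring 5 rose and 9 fell. Of the calls over all genes 47.6% were rises with that centring, against 61.0% on the deposited scaling. Mars2 rose most, with 7.27, 6.85 and 7.05 RPKM in glutamine-free and 4.47, 4.83 and 4.70 RPKM in complete libraries (log2 change 0.51 ± 0.032). The other 5 rises, of Nars2, Ears2, Pars2, Yars2 and Rars2, were 0.11 to 0.25 on the log2 scale. Nars2 was at 3.79, 3.64 and 3.50 RPKM without and 3.09, 2.94 and 2.69 RPKM with glutamine. Ears2 was at 1.33, 1.31 and 1.38 RPKM without and 0.975, 1.003 and 0.997 RPKM with it. Yars2 was at 11.7, 11.7 and 12.4 RPKM in glutamine-free and 10.6, 10.4 and 10.1 RPKM in complete libraries. Sars2 had the largest fall of all 36 genes in this line (log2 change -0.92 ± 0.054, adjusted p = 3.9e-09). It held 1.73, 1.51 and 1.78 RPKM in glutamine-free and 3.98, 3.99 and 4.23 RPKM in complete libraries. Its ratio of mean RPKM was 0.412, a fall beyond 2-fold without the added 1 RPKM. Iars2 was at 22.1, 23.2 and 22.1 RPKM without and 33.5, 34.1 and 35.1 RPKM with glutamine (log2 change -0.59 ± 0.024), and Aars2 at 5.15, 5.15 and 5.40 RPKM without and 8.21, 7.98 and 8.51 RPKM with it (log2 change -0.57 ± 0.037). Wars2, which had risen in WT cells, was at 2.48, 2.61 and 2.39 RPKM in glutamine-free and 3.58, 3.47 and 3.67 RPKM in complete p53-null libraries (log2 change -0.39 ± 0.031, adjusted p = 8.1e-08). Lars2 and Vars2 also fell. Cars2, Fars2, Hars2 and Tars2 were not called, with log2 changes between -0.085 and 0.098, though Fars2 was called without WT glutamine-free replicate 1 (adjusted p = 0.00839).

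The 2 responses were compared directly as a difference of log2 changes, p53-null minus WT, in which a negative value means a smaller rise or a larger fall in p53-null cells. The difference was called for 34 of the 36 genes, beside 84.9% of all genes called in either direction. Of the 20 cytosolic genes 16 were lower and 3 higher, with a median of -0.86, beside 38.4% of all genes called lower and 46.4% called higher, and a median of 0.062 over all genes. At least 2-fold lower responses were found for 9 of the 20, against 5.58% of all genes. Wars differed most, by -2.07 ± 0.028 (adjusted p = 5.4e-15), followed by Tars (-1.73), Lars (-1.53), Aars (-1.48), Iars (-1.38) and Sars (-1.22). Nars, Eprs and Rars, with -1.13, -1.09 and -1.08, complete the 9. The higher responses were those of Qars (1.02 ± 0.042, adjusted p = 9e-11), Kars (0.55 ± 0.017) and Farsa (0.082 ± 0.028, which turned to -0.018 with median centring). Hars, with log2 changes of 0.18 in p53-null and 0.19 in WT cells, was not called (difference -0.012 ± 0.025, adjusted p = 0.651).

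Of the 16 mitochondrial genes 11 had a lower and 4 a higher response in p53-null cells, with a median difference of -0.39, beside the 38.4% of all genes called lower and 46.4% called higher. Wars2 differed most, by -1.17 ± 0.044 (adjusted p = 3.8e-11), with opposite directions in the 2 lines. Yars2 (-0.93), Rars2 (-0.91), Nars2 (-0.85), Tars2 (-0.80) and Mars2 (-0.62) followed. Fars2 had the largest positive difference, 0.49 ± 0.072, and the other 3 higher responses, of Aars2, Cars2 and Pars2, were 0.18 to 0.21. With median centring or quantile normalization the 1 call left among these 4 was Fars2, beside 12 lower responses. Of the calls over all genes 47.3% and 47.6% were higher in those fits, against 54.7% on the deposited scaling. Cars2 lost its call in 6 of the 12 fits with a library left out. Vars2 was not called (difference -0.039 ± 0.041, adjusted p = 0.388). Of the Fars2 exon length, 10.7% lies under genes of the opposite strand, mostly Nrn1, which these unstranded libraries cannot separate.

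**Figure D4:**
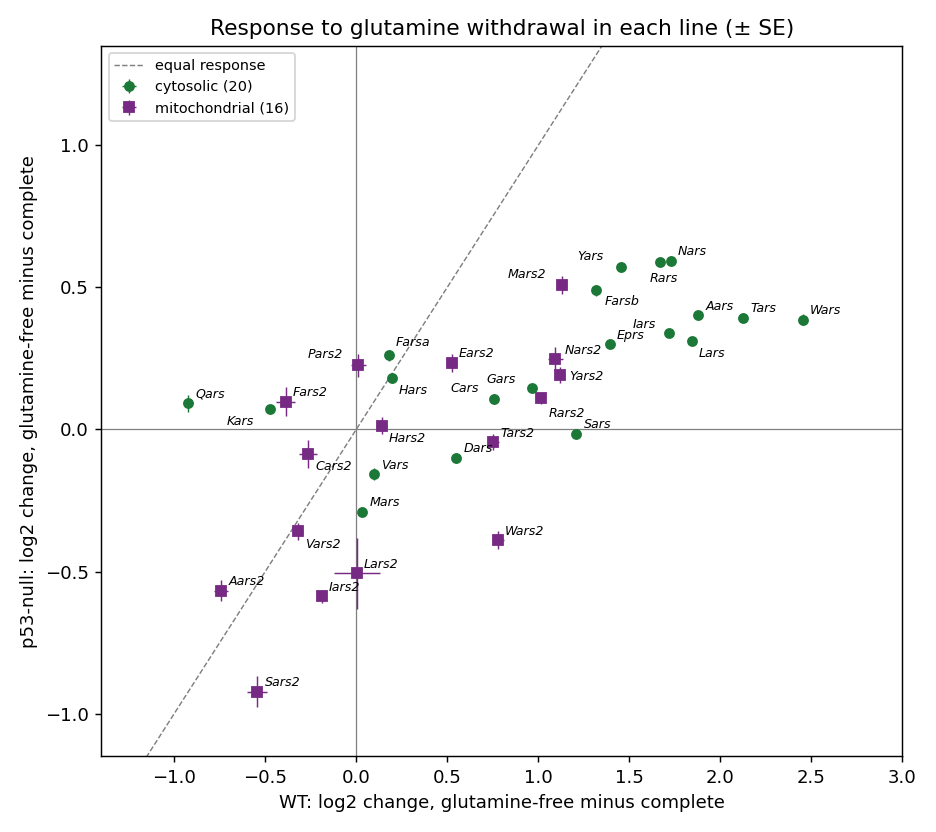
Log2 change on glutamine withdrawal in p53-null cells (y axis) against that in WT cells (x axis) for the 36 synthetase genes, with SE bars and a dashed line of equal response. Most cytosolic genes lie right of and below the line, Wars at 0.39 in p53-null and 2.45 in WT cells, while Qars and Kars lie to the left of 0 in WT.

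Between the lines in complete medium, most synthetase genes of both classes were higher in p53-null cells. These values share the complete-medium libraries with the responses above and are not independent of them. Of the cytosolic genes 15 were higher and 5 lower, beside 48.4% of all genes called higher and 42.5% called lower, and 4 were at least 2-fold higher, against 9.14% of all genes. The 4 were Rars, Nars, Wars and Lars. Rars held 153 RPKM in p53-null and 42.7 RPKM in WT cells on average, 3.59-fold (log2 difference 1.82 ± 0.015, adjusted p = 6.3e-18). Nars held 167 RPKM in p53-null and 49.7 RPKM in WT cells (log2 difference 1.73 ± 0.016). Wars held 40.5 RPKM in p53-null and 11.5 RPKM in WT cells (log2 difference 1.73 ± 0.020). The Lars difference was 1.13 ± 0.014. For each of the 4 genes all 3 p53-null libraries lay above all 3 WT libraries, and libraries of the 2 lines did not overlap for 91.2% of all genes. Kars had the largest difference the other way, at 75.9 RPKM in p53-null and 138 RPKM in WT cells (log2 difference -0.86 ± 0.012). Yars, Farsa, Farsb and Qars were the other 4 lower genes, with log2 differences of -0.49 to -0.17. The class median was 0.55, against 0.053 for all genes.

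Of the mitochondrial genes in complete medium 12 were higher and 2 lower in p53-null cells and 2 were not called, with a median log2 difference of 0.38. Over all genes 48.4% were called higher and 42.5% lower, with a median of 0.053. Hars2 was at 8.64, 9.02 and 9.24 RPKM in p53-null and 4.32, 4.45 and 4.36 RPKM in WT libraries (log2 difference 0.89 ± 0.031, adjusted p = 7.3e-12). Its neighbour Hars was higher too, by 0.58 ± 0.018. Aars2 and Mars2 followed with 0.75 and 0.61. Pars2 and Rars2 were lower, with log2 differences of -0.41 and -0.057. Rars2 was at 11.3, 11.6 and 11.6 RPKM in p53-null and 11.9, 12.04 and 12 RPKM in WT libraries, and its difference turned to 0.041 when libraries were rescaled to 1 sum of RPKM and lost its call without p53-null complete replicate 1 (adjusted p = 0.0609). Fars2 and Lars2 were not called, the second with an adjusted p of 0.0359 without p53-null glutamine-free replicate 1.

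In glutamine-free medium more cytosolic genes were lower in p53-null cells than higher. Of the 20, 13 were lower and 7 higher, beside 40.0% of all genes called lower and 51.4% called higher, and 4 were at least 2-fold lower, against 7.88% of all genes. The class median was -0.33, against 0.10 for all genes, and the median of all genes moved to 0.23 when libraries were rescaled to 1 sum of RPKM. Yars was lowest relative to WT, at 54.7 RPKM in p53-null and 144 RPKM in WT cells (log2 difference -1.38 ± 0.017, adjusted p = 2.7e-16). Aars stood at 148 RPKM in p53-null and 356 RPKM in WT cells (log2 difference -1.26 ± 0.011). Iars stood at 81.7 RPKM in p53-null and 182 RPKM in WT cells, and Farsb at 39.4 RPKM in p53-null and 81.3 RPKM in WT cells (log2 differences -1.149 ± 0.014 and -1.03 ± 0.019). Libraries of the 2 lines did not overlap for any of these 4 genes, nor for 91.4% of all genes. Qars, Rars, Nars, Hars, Mars, Cars and Vars were higher in starved p53-null cells. Qars averaged 40.1 ± 1.02 RPKM in p53-null and 21.8 ± 0.441 RPKM in WT cells (log2 difference 0.85 ± 0.029). Rars averaged 231 ± 0.102 RPKM in p53-null and 138 ± 1.40 RPKM in WT cells, and Nars 253 ± 2.09 RPKM in p53-null and 167 ± 2.68 RPKM in WT cells (log2 differences 0.74 ± 0.015 and 0.60 ± 0.016). The Gars difference of -0.24 turned to 0.067 with quantile normalization.

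Of the mitochondrial genes in glutamine-free medium 6 were higher, 7 lower and 3 not called in p53-null against WT cells. Over all genes 51.4% were called higher and 40.0% lower. The class median of -0.040 turned to 0.069 when libraries were rescaled to 1 sum of RPKM. There 8 were higher and 6 lower, and 63.6% of the calls over all genes were higher. With median centring 4 were higher and 10 lower, and 48.1% of the calls over all genes were higher. On the deposited scaling that share was 56.2%. Rars2 was at 12.4, 12.4 and 12.5 RPKM in p53-null and 25.0, 24.9 and 25.8 RPKM in WT libraries (log2 difference -0.96 ± 0.019), and Wars2 at 2.48, 2.61 and 2.39 RPKM in p53-null and 5.67, 5.59 and 5.69 RPKM in WT libraries (-0.93 ± 0.031). Aars2 had the largest positive difference, with 5.15, 5.15 and 5.40 RPKM in p53-null and 2.31, 2.11 and 2.39 RPKM in WT libraries (0.93 ± 0.037, adjusted p = 3.5e-11). Hars2 was at 9.06, 9.195 and 8.93 RPKM in p53-null and 4.69, 5.04 and 5.03 RPKM in WT libraries. Hars2 and Cars2 were higher by 0.77 and 0.75. Iars2, Mars2 and Ears2 were not called, with log2 differences of 0.0071, -0.011 and -0.068, the last called without WT complete replicate 3 (adjusted p = 0.0455). The call of Sars2, higher by 0.13, was lost without WT glutamine-free replicate 1 or 3 or p53-null glutamine-free replicate 1 or 3 (adjusted p = 0.0671 to 0.15).

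Lars2, the mitochondrial leucine enzyme on chromosome 9 at 123366927 to 123462666 (plus strand, mm10), stood apart from the other mitochondrial genes in level and in spread, and is described here because of that, after its values were seen. It held 221, 164 and 144 RPKM in p53-null glutamine-free, 256, 229.7 and 256 RPKM in p53-null complete, 252, 305 and 294 RPKM in WT glutamine-free and 259, 289.6 and 299 RPKM in WT complete libraries. The next highest mitochondrial gene, Iars2, averaged 34.2 RPKM in p53-null and 25.6 RPKM in WT cells in complete medium. Within groups the SD of Lars2 was 6.17 to 22.7% of its mean, against a median of 2.84% for the other mitochondrial genes and 0.972% for the cytosolic genes. The ribosomal RNA precursor Rn45s, which has no poly(A) tail, held 2697, 2250 and 1926 RPKM in p53-null glutamine-free, 3105, 3021 and 3285 in p53-null complete, 3769, 4042 and 3982 in WT glutamine-free and 5198, 5156 and 5761 RPKM in WT complete libraries. Within the glutamine-free groups the libraries fell in the same order for Lars2 and Rn45s, and within the complete groups the orders differed. The part of ribosomal RNA reads in the Lars2 value was not tested. Lars2 fell in p53-null cells on withdrawal (log2 change -0.51 ± 0.125, adjusted p = 0.00228) and was not called in WT cells (0.0034 ± 0.125, adjusted p = 0.984).

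Genes that work beside the synthetases were read from lists by their known roles, on the deposited scaling alone. The 3 scaffold genes of the multi-synthetase complex, Aimp1, Aimp2 and Eef1e1, rose in both lines, with mean levels of 96.1 ± 1.52 RPKM for Aimp1 in glutamine-free and 41.6 ± 0.753 RPKM in complete WT cells (log2 change 1.19 ± 0.022). Their rises were 0.16 to 0.28 in p53-null and 0.94 to 1.19 in WT cells on the log2 scale. All 3 responses were lower in p53-null cells, beside 38.4% of all genes called lower. Of 13 genes for the delivery, export, processing or repair of tRNA, 8 rose and 4 fell in p53-null cells. Of all genes 50.0% were called higher and 32.0% lower there. In WT cells 10 of the 13 rose and 1 fell, beside 46.0% of all genes called higher and 44.0% called lower. Xpot, the nuclear export receptor for tRNA, was at 68.6 ± 0.0745 RPKM in glutamine-free and 21.1 ± 0.146 RPKM in complete WT cells, and Trnt1, which adds the CCA end to tRNA, at 34.7 ± 1.48 and 11.2 ± 0.282 RPKM in those groups. Eef1a1, the elongation factor that carries charged tRNA to the ribosome, was the 1 that fell in WT cells, at 1913 RPKM without and 3583 RPKM with glutamine.

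The subunits of the mitochondrial amidotransferase that makes glutaminyl-tRNA with glutamine as its nitrogen donor did not move together. In p53-null cells Gatc rose by 0.19 on the log2 scale, while Qrsl1 and Gatb fell, with changes of -0.57 and -0.26. In WT cells Gatc was at 32.0 ± 0.356 RPKM in glutamine-free and 10.99 ± 0.55 RPKM in complete libraries (log2 change 1.46 ± 0.038), Qrsl1 changed by 0.18 ± 0.048 and Gatb by -0.67 ± 0.053, all 3 called. Of 15 mitochondrial translation factors and tRNA modifiers 9 rose and 3 fell in p53-null cells, where 50.0% of all genes were called higher and 32.0% lower. In WT cells 10 of the 15 rose and 3 fell, beside 46.0% called higher and 44.0% called lower of all genes, with median log2 changes of 0.11 in p53-null and 0.21 in WT cells. Trmt61b, a mitochondrial tRNA methyltransferase, had the largest change in WT, at 6.62 ± 0.157 RPKM in glutamine-free and 1.84 ± 0.0675 RPKM in complete cells.

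Of 10 genes that mark amino acid stress, 9 rose and 1 fell in both lines, while 50.0% of all genes were called higher in p53-null and 46.0% in WT cells. The median log2 change of the 10 was 0.65 in p53-null and 2.02 in WT cells. Trib3, a stress-induced pseudokinase, was at 95.3 ± 0.552 RPKM in glutamine-free and 45.1 ± 0.599 RPKM in complete p53-null cells, and at 110.1 ± 2.44 RPKM in glutamine-free and 4.69 ± 0.618 RPKM in complete WT cells. Atf3, a stress transcription factor, was at 23.4 ± 0.288 RPKM in glutamine-free and 5.94 ± 0.165 RPKM in complete p53-null cells, and at 45.04 ± 0.864 RPKM in glutamine-free and 1.61 ± 0.0609 RPKM in complete WT cells. In complete medium all 10 were higher in p53-null cells, beside 48.4% of all genes, and Eif2ak4, the gene that fell on withdrawal, averaged 17.9 ± 0.214 RPKM in p53-null and 7.52 ± 0.161 RPKM in WT cells. The response of 9 of the 10 was lower in p53-null than in WT cells, beside 38.4% of all genes, with a median difference of -1.39, beside -0.86 for the cytosolic synthetases.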

How the data were processed

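RNA of 12 libraries was sequenced from TruSeq RNA (V2) libraries, a kit that does not mark strand, per the labels' protocols. The authors deposited 1 table of RPKM for 19439 gene entries. The submitters' processing notes name CASAVA 1.8, HISAT2 2.0.4, Partek and the mm10 build, and for the gene models and multi-mapped reads the method is not given in these sources. The deposited values were checked for whole reads, and 54.0 to 57.9% of low values came out whole, so counts were not recovered and no count test was run. RPKM summed to 284426 to 319735 per library.

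From the deposited RPKM, log2(RPKM + 1) was fitted with limma 3.58.1 in R 4.3.3 on the 4 group means, with a mean-variance trend, over 11461 genes at 1 RPKM or more in at least 3 of the 12 libraries. Both responses to the medium, both differences between the lines and the difference of responses were tested two-sided, with Benjamini-Hochberg adjustment over all genes tested in each comparison and a threshold of 0.05. A 2-fold change is an absolute log2 change of at least 1. The script was tested on simulated data. Groups came from the labels, and all columns were used.

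Genes were chosen by name, and the members and lists with earlier results of these data known. Values in every library are given for the 4 cytosolic and 3 mitochondrial genes with the largest absolute change in each comparison, for cytosolic genes not called higher in a medium comparison, and for the glutamine, glutamate, asparagine, arginine, glycine and lysine enzymes; from each list up to 3 genes are named. Farsa, Lars2 with Rn45s, Ddit3 beside Mars, and Eif2ak4 were added after their values were seen, and the promoter runs were limited to matches before the RefSeq start and to bases outside GENCODE exons. Gene positions and exon overlaps come from GENCODE M21 and promoters from RefSeq, both on GRCm38, read with Python 3.11.15. Alternatives were a pseudocount of 0.1, no filter, rescaling to 1 sum of RPKM, median centring, quantile normalization, no trend, a replicate block and each library left out.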

Additional observations from a re-analysis of the deposited data

Results flagged for a closer look

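The response to glutamine withdrawal differed between the 2 lines in 34 of the 36 synthetase genes by the limma test of the difference itself (adjusted p under 0.05), beside 84.9% of all genes called in either direction. Values are p53-null minus WT on the log2 scale, and with so little spread between libraries many of them are small. Among cytosolic genes the difference was -2.07 for Wars, -1.73 for Tars, -1.53 for Lars, -1.48 for Aars, -1.38 for Iars, -1.22 for Sars, -1.13 for Nars, -1.09 for Eprs and -1.08 for Rars. It was -0.88 for Yars, -0.83 for Farsb, -0.82 for Gars, -0.65 for both Cars and Dars, -0.32 for Mars and -0.25 for Vars, and it was positive for Qars (1.02), Kars (0.55) and Farsa (0.082). Among mitochondrial genes it was -1.17 for Wars2, -0.93 for Yars2, -0.91 for Rars2, -0.85 for Nars2, -0.80 for Tars2, -0.62 for Mars2, -0.51 for Lars2, -0.40 for Iars2, -0.38 for Sars2, -0.29 for Ears2 and -0.13 for Hars2. It was positive for Fars2 (0.49), Pars2 (0.21), Cars2 (0.18) and Aars2 (0.18).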

How the results depend on the processing

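Of 3420 values of single synthetase genes under the alternatives, 3331 kept their direction and their side of the threshold, 22 became called, 27 lost their call and 40 changed sign; the largest absolute log2 change among those that changed sign was 0.24. The pseudocount of 0.1 reversed none of them. Because log2 changes are differences of group means, dropping the filter or the trend, or adding the replicate block, cannot change a sign. Leaving out a library from a group outside the comparison cannot either. Values from these fits are among the 3420 and could change only in their call, so for them an unchanged direction is no test. With few reads per kilobase the mitochondrial genes are the less precise class, and depth was only estimated.

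When libraries were rescaled to 1 sum of RPKM, values turned to -0.014 for Lars2 and -0.0027 for Pars2 (WT response), 0.011 for Sars (p53-null response), 0.061 for Fars2 and 0.041 for Rars2 (p53-null minus WT, complete), 0.0089 for Dars, 0.019 for Ears2 and 0.12 for Mars2 (p53-null minus WT, glutamine-free) and 0.030 for Hars (difference of responses). The mitochondrial medians turned to 0.0080 (p53-null response) and 0.069 (p53-null minus WT, glutamine-free), and 1 mitochondrial gene was called lower in p53-null cells in complete medium, against 2.

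With quantile normalization, values turned to -0.071 for Mars and -0.0098 for Vars (WT response), -0.034 for Cars, -0.048 for Qars, -0.089 for Hars2 and -0.015 for Rars2 (p53-null response), 0.035 for Lars2 (complete), 0.067 for Gars, -0.027 for Iars2 and -0.021 for Sars2 (glutamine-free), and 0.0061 for Hars, -0.11 for Aars2 and -0.015 for Cars2 (difference of responses). With median centring they turned to -0.0021 for Lars2 (WT response), -0.033 for Kars, -0.013 for Qars, -0.0080 for Fars2 and -0.092 for Hars2 (p53-null response), -0.13 for Iars2 and -0.0028 for Sars2 (glutamine-free) and -0.018 for Farsa (difference of responses). In both, 1 mitochondrial gene had a higher response in p53-null cells, against 4, and with median centring 5 cytosolic genes fell in p53-null cells, against 3. Over all genes 61.0% of calls in the p53-null response were rises, and 47.6% with median centring. In the difference of responses 54.7% of calls were higher, and 47.6% with quantile normalization and 47.3% with median centring.

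Leaving out 1 library at a time gave a WT response of -0.058 to 0.087 for Lars2 and -0.024 to 0.057 for Pars2, a p53-null response of -0.010 to 0.033 for Hars2 and a p53-null mitochondrial median of -0.032 to 0.0016, the last without p53-null complete replicate 2. It gave -0.014 to 0.018 for Iars2 and -0.030 to 0.0075 for Mars2 (p53-null minus WT, glutamine-free), -0.024 to 0.0078 for Hars (difference of responses), and 1 to 3 mitochondrial genes lower in p53-null cells in complete medium. That count was 1 without p53-null complete replicate 1 and 3 without p53-null glutamine-free replicate 1. With Lars2 left out of the class, an alternative chosen after seeing the data, the mitochondrial median of the p53-null response was 0.014.

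No pairing of the samples by replicate number was seen. Deviations of same-numbered libraries correlated at -0.106 to 0.056, and only 2 of 12 comparisons of a library had its own number as the best match. That does not show that same-numbered libraries were prepared apart. The replicate block left all counts of called synthetase genes as they were, with 17 cytosolic genes higher and 2 lower in the WT response.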
